A study of Mus musculus with 32 samples.

Results

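The genes described here are 10 interferon-inducible GTPases of the mouse cochlea: the guanylate-binding proteins Gbp2, Gbp3, Gbp4, Gbp5, Gbp6 and Gbp7, and the immunity-related GTPases Iigp1, Irgm1, Irgm2 and Igtp. They were taken by symbol from the 43947 genes listed in the series. The members and the other gene lists were chosen with earlier results of these data known. Their counts against the share of all genes therefore describe chosen lists. All 10 are listed for the Sox2 strain, and 8 for the Prestin strain, whose 39399 genes do not include Gbp5 and Gbp6. The 32 RNA sequencing libraries came from mice of 10 weeks with genotype PrestinCre/+;RiboTagHA/+ or Sox2Cre/+;RiboTagHA/+, where the design text names the inducible form of Cre (CreERT2) and a CBA background. Both strains, controls included, carry RiboTag, an allele that puts an HA tag on the ribosomal protein Rpl22 in cells with Cre activity. Prestin (Slc26a5) drives Cre in outer hair cells and Sox2 drives it in supporting cells. Cochleae were collected from mice that had been exposed to 105 dB SPL noise for 2 h, either 6 h or 24 h later, and from mice without noise. Each homogenate of the cochlea gave an input library (the whole cochlea) and an IP library (RNA pulled down with an antibody to HA). The 6 Prestin groups held 3 libraries each, and the Sox2 groups held 2 IPs and 2 inputs without noise, 2 of each at 6 h and 3 of each at 24 h.

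In GRCm38 (GENCODE M21) the genes lie in clusters. Gbp5 (ENSMUSG00000105504), Gbp7 (ENSMUSG00000040253), Gbp3 (ENSMUSG00000028268) and Gbp2 (ENSMUSG00000028270) stand in a row on the plus strand of chromosome 3, at 142493978 to 142522344, 142530342 to 142550149, 142560026 to 142573209 and 142620602 to 142638008. Gbp4 (ENSMUSG00000079363) lies on the minus strand of chromosome 5 at 105115767 to 105139586, where its span overlaps Gbp8 and Gbp9. Gbp6 (ENSMUSG00000104713) lies on the same strand at 105270702 to 105293698. Irgm1 (ENSMUSG00000046879) is on the minus strand of chromosome 11 at 48861968 to 48871683. Farther along chromosome 11, Igtp (ENSMUSG00000078853, 58199556 to 58207591) and Irgm2 (ENSMUSG00000069874, 58199618 to 58222782) overlap on the plus strand. Iigp1 (ENSMUSG00000054072) is on the plus strand of chromosome 18 at 60376027 to 60392634. The span of Gbp7 overlaps Gm43802 and that of Gbp6 overlaps Gm43302, each on the same strand. Reads of overlapping genes on one strand, and of close Gbp copies, can be split between them in ways that the deposited values do not show. The values of Igtp, Irgm2, Gbp4, Gbp6 and Gbp7 are uncertain to that extent.

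Guanylate-binding proteins (Gbp) and immunity-related GTPases (Irg) are GTP-binding proteins that cells make after contact with interferons, above all interferon-gamma. They gather on the membranes around bacteria and parasites inside a cell and help to break them, and Gbp proteins also help to start inflammasome signalling. Among the Irg proteins, Iigp1 is an effector that attacks such membranes, while Irgm1, Irgm2 and Igtp (Irgm3) are regulators that sit on the cell's own membranes and keep effectors inactive there. Their genes are classical targets of interferon signalling, whose transcription factors bind short promoter sequences known as GAS and ISRE, and IRF1 is among those that bind ISRE.

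The promoter sequences show what the members share near their start sites. The members are classical interferon targets, so shared ISRE letters go with that choice of genes and tell nothing about the response to noise. RefSeq windows on GRCm38.p6, from 250 bases before to 50 bases after a start site, were at hand for 7 of the 10 members (Gbp5, Gbp7, Gbp3, Gbp2, Irgm1, Igtp and Irgm2). The stretch around each match to the ISRE letters (a pair of GAAA parted by any 2 bases, or of TTTC on the other strand) is printed 5′ to 3′ along the gene's strand, with the matched bases in capitals.
Gbp5, chr3:142496754-142496793, plus strand: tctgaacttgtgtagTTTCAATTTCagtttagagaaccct
Gbp7, chr3:142530268-142530307, plus strand: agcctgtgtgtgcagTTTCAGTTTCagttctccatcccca
Gbp3, chr3:142559984-142560029, plus strand: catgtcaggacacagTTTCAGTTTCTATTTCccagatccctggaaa
Gbp2, chr3:142620589-142620628, plus strand: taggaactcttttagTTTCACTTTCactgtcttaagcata
Irgm1, chr11:48871420-48871465, minus strand: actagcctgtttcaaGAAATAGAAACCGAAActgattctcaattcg
Igtp, chr11:58199507-58199546, plus strand: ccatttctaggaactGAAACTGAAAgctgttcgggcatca
Irgm2, chr11:58214898-58214937, plus strand: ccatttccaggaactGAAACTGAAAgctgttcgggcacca

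All 7 genes held at least 1 such match, against 3.99% of the 27025 genes with a promoter in the table (3.44% of 32851 promoter windows). Gbp3 and Irgm1 held 2 matches each, which overlap. Gbp3 has a second RefSeq start site, whose window held none. The match began 64 to 24 bases before the RefSeq start site in 6 of the genes, and 165 bases before it in Gbp5. The windows of Gbp5 (from 142496684) and Irgm2 (from 58214727) lie well past the GENCODE starts of these genes printed above. The GAS letters (TTCNNNGAA, which read the same on both strands) were found in Gbp5, Gbp7, Igtp and Irgm2, against 9.55% of genes. Igtp and Irgm2 shared 38 of the 40 printed bases, and 107 of 110 bases when 50 on each side of the match were compared. Of 7 other interferon-inducible GTPase genes with a window, 6 held the ISRE letters, and of 11 related GTPases that are not known as interferon targets (atlastins, dynamins, mitofusins, Opa1 and Irgq) none held either motif. A list of 11 would hold few matches at the shares over all genes, so that last count says little. A match to letters is a description of the sequence and no evidence of binding.

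**Figure D1:**
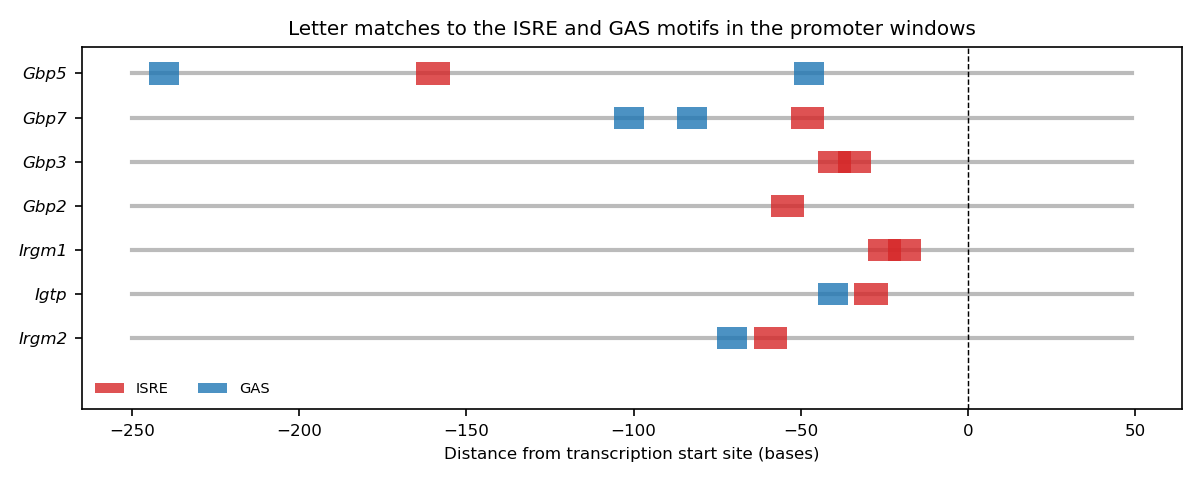
Position of letter matches to ISRE (red) and GAS (blue) in the promoter windows of 7 members, as distance in bases from the RefSeq transcription start site (dashed line, position 0). Each grey line is the window of a gene, and the ISRE match lies within 64 bases of the start site in every gene drawn except Gbp5.

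Values are in TPM, which scale each library to the same total and correct for gene length, so levels can be compared between genes but the depth behind them is unknown. Genes above 0 numbered 15929 to 21239 per library, and the 4 Sox2 libraries at 6 h were the lowest of their strain (15929 to 16966). Summed over 8 outer hair cell markers, Prestin IPs stood at 508 to 2207 TPM and Prestin inputs at 80.4 to 111 TPM. Summed over 8 supporting cell markers, Sox2 IPs stood at 1830 to 4934 TPM, Sox2 inputs at 435 to 714 TPM and Prestin IPs at 581 to 857 TPM. The IPs also held other cells' RNA. Over 8 Schwann and satellite glia markers the Sox2 IPs reached 2707 to 8248 TPM, and over 10 macrophage markers the Prestin IPs stood at 88.9 to 349 TPM and the Sox2 IPs at 102 to 253 TPM. The names outer hair cell IP and supporting cell IP therefore stand for the pull-downs, not pure cells. In these bulk samples, a change in the number of cells of a type and a change in RNA per cell cannot be told apart.

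All members with values for both strains were expressed in the cochlea before noise, and the regulators Irgm1 and Igtp stood highest. In control Prestin inputs (mean ± SD, n = 3), Irgm1 was first at 34.6 ± 6.44 TPM, Igtp second at 17.0 ± 3.05 TPM and Gbp3 next at 10.1 ± 3.23 TPM. Irgm2 followed at 6.97 ± 0.863 TPM, the effector Iigp1 at 4.73 ± 0.471 TPM and Gbp2 at 3.51 ± 0.582 TPM. Gbp7 (2.67 ± 0.533 TPM) and Gbp4 (1.80 ± 0.0916 TPM) were the lowest. The ranges of neighbours in this order did not overlap, but Igtp and Gbp3 met at 13.8 TPM and Iigp1 and Gbp2 at about 4.19 and 4.18 TPM. In the 2 control Sox2 inputs Irgm1 was again first (26.5 and 33.3 TPM), and the members listed for that strain alone were low, with Gbp6 at 1.05 and 1.44 TPM and Gbp5 at 0.431 and 0.549 TPM.

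In the whole cochlea 24 h after noise, 7 of the 8 members tested in both strains together were higher than in controls, against 3.78% of 14204 genes. The test was limma on log2(TPM + 1) with the strain as a covariate and Benjamini-Hochberg adjustment over all genes, and a gene is called at an adjusted p below 0.05. Changes are log2 fold changes of TPM + 1 ± standard error, a scale that understates the change of low genes. The median change was 1.22 over the members and 0.02 over all genes.

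Gbp2, which gathers on the vacuoles of parasites such as Toxoplasma, had the largest change of the 8. It stood at 4.18, 3.24 and 3.12 TPM in Prestin controls and at 39.0, 26.0 and 22.5 TPM 24 h after noise, and in Sox2 inputs at 2.16 and 3.41 TPM in controls and at 23.1, 33.0 and 20.9 TPM at 24 h. The lowest library after 24 h was above the highest control by several times in each strain, and the rise was 2.74 ± 0.18 on the log2 scale (adjusted p = 1.09e-06). Gbp3, its neighbour on chromosome 3, stood at 8.59, 7.90 and 13.8 TPM in Prestin controls and at 47.3, 36.5 and 30.5 TPM at 24 h. In the Sox2 inputs Gbp3 went from 8.96 and 9.39 TPM to 34.8, 54.4 and 31.2 TPM, and the rise over both strains was 1.91 ± 0.21 (adjusted p = 8.21e-05). Gbp7 lies between Gbp5 and Gbp3, and its levels were lower.

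Prestin inputs held Gbp7 at 2.94, 3.02 and 2.06 TPM without noise and at 6.06, 5.72 and 4.35 TPM at 24 h, and Sox2 inputs at 2.36 and 2.05 TPM and then at 4.81, 6.34 and 5.27 TPM. Gbp7 rose by 0.87 ± 0.18 (adjusted p = 0.0104), and groups did not overlap. In Prestin inputs alone its adjusted p was 0.0574. Gbp4, of the chromosome 5 cluster, was the member that missed the threshold. It stood at 1.79, 1.72 and 1.90 TPM in Prestin controls and at 3.76, 3.68 and 2.47 TPM at 24 h, and in Sox2 inputs at 1.16 and 1.15 TPM and then at 2.84, 6.68 and 2.80 TPM. All of its 24 h libraries lay above all controls of their strain, with a change of 0.84 ± 0.23 (adjusted p = 0.0514). Leaving out the Prestin input at 24 h with replicate number 3, the Prestin input at 6 h with number 2 or the Sox2 input at 6 h with number 4 brought this p below the threshold (0.0496, 0.0370 and 0.0236).

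Gbp5 and Gbp6 have values in the Sox2 inputs alone. Gbp5, which promotes inflammasome assembly, stood at 0.431 and 0.549 TPM in controls and at 2.39, 3.504 and 2.30 TPM at 24 h, with a difference of 1.31 ± 0.27 (adjusted p = 0.230). Gbp6 stood at 1.05 and 1.44 TPM in controls and at 3.52, 5.27 and 2.77 TPM at 24 h, with a difference of 1.08 ± 0.31 (adjusted p = 0.430). Neither passed, nor did any other gene: in Sox2 inputs alone limma called 0.0% of 15371 genes higher at 24 h, while 1190 genes and all 10 members had an unadjusted p below 0.05. In Prestin inputs alone, 6 of 8 members passed, against 3.17% of genes.

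Among the Irg genes the effector changed more than the regulators in the values given by the fit, a contrast that was not tested. Iigp1 stood at 4.19, 4.89 and 5.09 TPM in Prestin controls and at 33.4, 20.0 and 15.2 TPM at 24 h. In Sox2 inputs it stood at 2.81 and 3.38 TPM and then at 24.7, 32.8 and 19.5 TPM. Every 24 h library was far above the controls, and the rise was 2.30 ± 0.24 (adjusted p = 4.59e-05). The regulator Irgm1 was at 35.7, 27.7 and 40.4 TPM in Prestin controls and at 95.4, 72.8 and 65.6 TPM at 24 h, and in Sox2 inputs at 26.5 and 33.3 TPM and then at 79.4, 103.8 and 76.7 TPM. Groups did not overlap in either strain, and Irgm1 rose by 1.30 ± 0.16 (adjusted p = 0.000165).

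Igtp stood at 19.9, 13.8 and 17.3 TPM in Prestin controls and at 37.0, 35.3 and 29.4 TPM at 24 h, and in Sox2 inputs at 14.1 and 16.3 TPM and then at 41.4, 51.1 and 34.9 TPM. It rose by 1.15 ± 0.16 (adjusted p = 0.000635). Irgm2, which shares its locus, stood at 7.004, 6.09 and 7.81 TPM in Prestin controls and at 16.03, 11.2 and 12.5 TPM at 24 h, and in Sox2 inputs at 7.53 and 6.57 TPM and then at 16.2, 18.5 and 17.0 TPM. It rose by 1.002 ± 0.18 (adjusted p = 0.00419). Over the whole family, all 8 members of the Prestin inputs and all 10 of the Sox2 inputs had every 24 h library above every control, a pattern shown by 13.6% and 21.3% of the genes tested in these inputs.

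**Figure D2:**
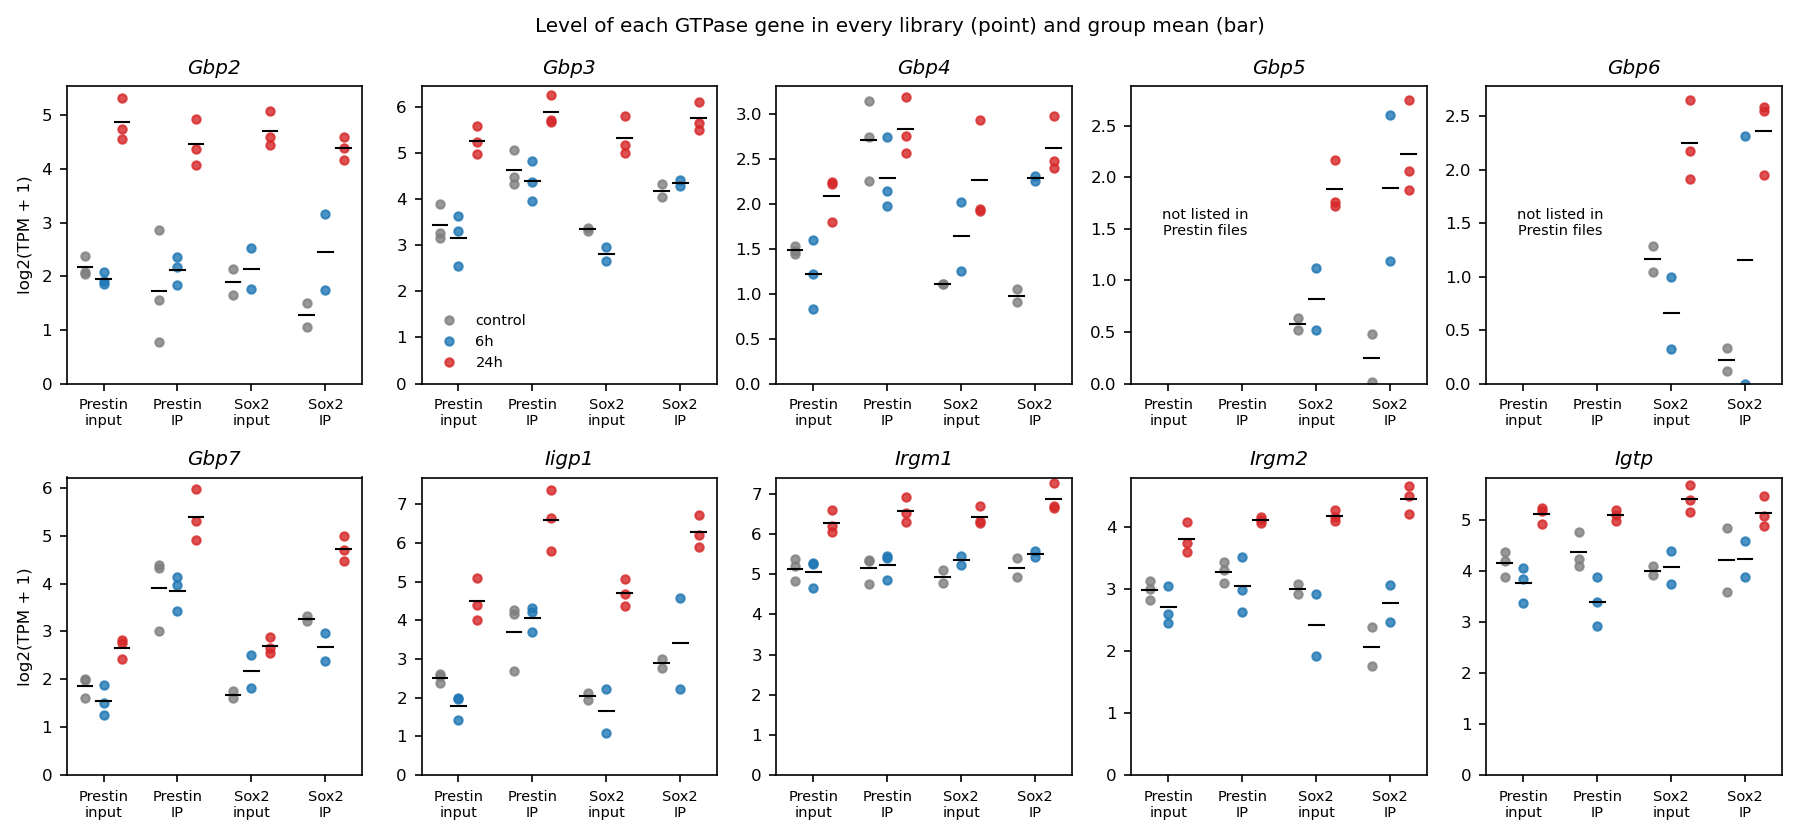
Level of each of the 10 genes in every library as log2(TPM + 1), for Prestin and Sox2 inputs and IPs, with controls in grey, 6 h in blue and 24 h in red; a point is a library and a bar the group mean. In both inputs the red points lie above the grey points for every gene, and there the blue points lie near the grey ones for most genes.

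At 6 h none of the 8 members was called in the whole cochlea by limma, and 1 of them had an unadjusted p below 0.05, whereas 8.54% of all genes were called (3.83% higher and 4.71% lower). Member changes ran from -0.59 to 0.12 with a median of -0.12. The lowest was Iigp1, which stood at 2.87, 1.68 and 3.001 TPM in the Prestin inputs at 6 h, below all controls, and at 3.66 and 1.11 TPM in the Sox2 inputs, where it overlapped the controls (-0.59 ± 0.25, adjusted p = 0.160). The 95% intervals of the fit held all member changes at 6 h between -1.12 and 0.56. From 6 h to 24 h all 8 members rose, against 12.6% of genes, from 0.79 ± 0.23 for Gbp4 (adjusted p = 0.0299) to 2.88 ± 0.24 for Iigp1 (adjusted p = 3.87e-06). With each input left out in turn, 7 or 8 members were called. In Sox2 inputs alone 6 of 10 members were called from 6 h to 24 h, against 2.86% of genes. The comparisons with 6 h and with controls share the 24 h libraries, and both comparisons with controls share the control libraries.

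At 24 h 4 of 8 members were higher in the outer hair cell IP than without noise, against 1.1% of 16703 genes. These were Iigp1, Gbp2, Irgm1 and Gbp3. All 8 changes were positive, with a median of 1.35 where the median of all genes was -0.15. Iigp1 stood at 5.45, 17.0 and 18.1 TPM in control IPs and at 165, 99.1 and 54.4 TPM at 24 h (106 ± 55.9 TPM, n = 3). It rose by 2.90 ± 0.51 (adjusted p = 0.0263). Gbp2 stood at 6.24, 0.701 and 1.96 TPM in control IPs and at 29.4, 19.6 and 15.96 TPM at 24 h, a rise of 2.73 ± 0.49 (adjusted p = 0.0279). Neither gene's groups overlapped, although the controls spread widely.

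Irgm1 stood at 39.9, 39.5 and 25.9 TPM in control IPs and at 120, 90.9 and 78.6 TPM at 24 h, a rise of 1.44 ± 0.25 (adjusted p = 0.0255). Gbp3 stood at 19.1, 21.3 and 32.2 TPM and then at 75.9, 50.3 and 51.1 TPM, a rise of 1.26 ± 0.29 (adjusted p = 0.0467). Gbp7 stood at 7.09, 19.9 and 19.0 TPM in controls and at 62.1, 38.3 and 28.9 TPM at 24 h, with a difference of 1.49 ± 0.43 that did not pass (adjusted p = 0.0778). Irgm2 (0.84 ± 0.23, adjusted p = 0.0703) and Igtp (0.73 ± 0.27, adjusted p = 0.142) did not pass either. In all 7 of these genes every 24 h IP was above every control IP, as in 9.59% of genes. Summed outer hair cell markers stood at 814 to 2207 TPM in the control IPs and at 775 to 891 TPM at 24 h, and their part in these values was not tested. Gbp4 was the exception, with 7.86, 3.77 and 5.73 TPM in controls and 8.18, 5.76 and 4.93 TPM at 24 h (0.12 ± 0.31, adjusted p = 0.824).

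The calls in this IP rest on few libraries. When any 1 of the 3 IPs at 24 h was left out, none of the 4 calls was left, and without the control IP with replicate number 3 a single call was left. Fitted jointly with the inputs, so that the spread is estimated over both kinds of library, the same comparison called 7 of the 8 members. That fit also called more of all genes higher, 1132 against 183 in the fit of the IPs alone. At 6 h none of the 8 was called in this IP, where 5.63% of genes were, and 1 had an unadjusted p below 0.05. That was Igtp, which stood at 26.5, 17.9 and 16.1 TPM in control IPs and at 9.51, 6.58 and 13.8 TPM at 6 h, with no overlap (-0.97 ± 0.27, adjusted p = 0.0742). The joint fit called this gene lower (adjusted p = 0.0122), as it did 3409 of all genes, against 797 in the fit of the IPs alone. From 6 h to 24 h none of the 8 passed, where 0.102% of genes did, but 7 had an unadjusted p below 0.05 and the joint fit called 7. Over all genes the joint fit called 424 there, against 17 in the fit of the IPs alone.

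In the supporting cell IP at 24 h none of the 10 members passed the test. That comparison rests on 2 control libraries and called 0.108% of 17577 genes higher. All 10 changes were positive, with a median of 1.85 where the median gene stood at 0.14, and 9 had an unadjusted p below 0.05. Iigp1 stood at 5.79 and 7.06 TPM in control IPs and at 72.6, 104 and 58.8 TPM at 24 h (3.39 ± 0.68, adjusted p = 0.183). Gbp2 stood at 1.08 and 1.82 TPM and then at 19.9, 23.2 and 17.0 TPM (3.11 ± 0.45, adjusted p = 0.0915). Irgm2 stood at 4.23 and 2.38 TPM and then at 21.7, 24.3 and 17.6 TPM (2.39 ± 0.32, adjusted p = 0.0722, the lowest of the 10). The groups of these genes lay far apart.

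Irgm1 stood at 29.4 and 41.3 TPM in control IPs and at 104, 155 and 99.1 TPM at 24 h (1.72 ± 0.26, adjusted p = 0.0991). Gbp3 stood at 15.5 and 19.0 TPM and then at 49.4, 68.0 and 44.3 TPM (1.57 ± 0.23, adjusted p = 0.0945). Gbp7 stood at 8.27 and 8.9998 TPM and then at 31.1, 24.97 and 21.3 TPM (1.46 ± 0.27, adjusted p = 0.156). Levels of the rest were low in control IPs, apart from Igtp. Gbp4 stood at 0.877 and 1.07 TPM and then at 4.30, 6.93 and 4.60 TPM (1.65 ± 0.29, adjusted p = 0.144). Gbp5 stood at 0.393 and 0.0115 TPM and then at 5.73, 3.18 and 2.67 TPM (1.98 ± 0.53, adjusted p = 0.272), and Gbp6 at 0.258 and 0.0852 TPM and then at 4.84, 5.01 and 2.86 TPM (2.14 ± 0.70, adjusted p = 0.349). Igtp changed least, from 11.1 and 27.8 TPM to 28.7, 43.6 and 33.1 TPM (0.93 ± 0.44, adjusted p = 0.478).

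Summed supporting cell markers stood at 1830 to 3325 TPM in these control IPs and at 3165 to 4934 TPM at 24 h, and their part in the members' values was not tested. All 10 members had every 24 h IP above both control IPs, as did 22.3% of genes with these small groups. The joint fit with the inputs called 8 of the 10, and left out Gbp6 (adjusted p = 0.0779) and Igtp (adjusted p = 0.220). It called 375 of all genes higher, against 19 in the fit of the IPs alone. At 6 h 9 of the 10 changes were positive, with a median of 0.61 where the median gene stood at -0.07. None of the 10 passed, where 0.694% of genes did, and 2 had an unadjusted p below 0.05. These were Gbp4, at 3.99 and 3.80 TPM (1.31 ± 0.32, adjusted p = 0.122), and Gbp5, at 5.07 and 1.29 TPM (1.65 ± 0.58, adjusted p = 0.224). The 6 h IPs differed from each other by several times for some genes: Iigp1 stood at 3.67 and 23.1 TPM, and Gbp6 was listed at 0 in the library where Iigp1 was low and stood at 3.96 TPM in the other. From 6 h to 24 h none of the 10 passed, where 0.506% of genes did, while 6 had an unadjusted p below 0.05. Gbp7 came closest (2.05 ± 0.27, adjusted p = 0.0504), from 4.22 and 6.84 TPM at 6 h.

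**Figure D3:**
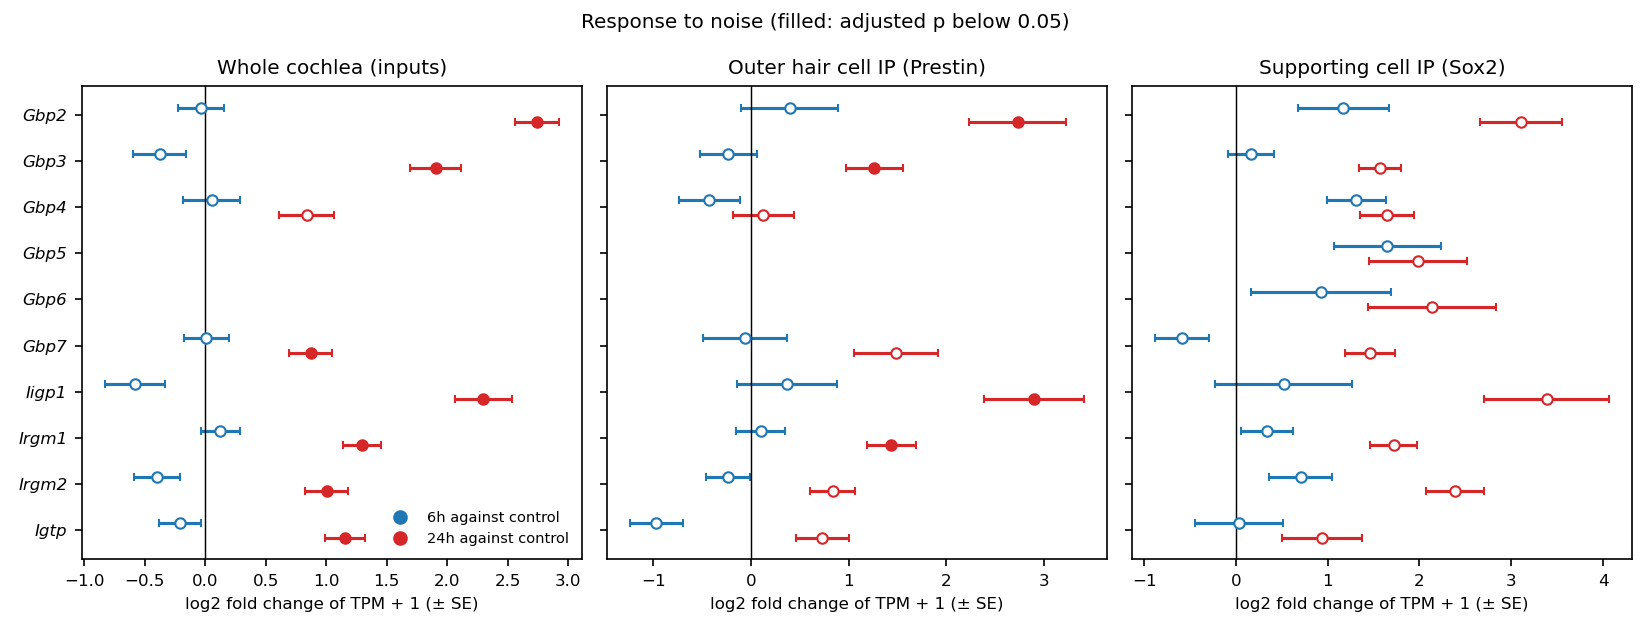
Log2 fold change of TPM + 1 against controls (± standard error) of each gene at 6 h (blue) and 24 h (red), in the inputs of both strains, the outer hair cell IP and the supporting cell IP; filled points passed an adjusted p of 0.05. Red points lie right of 0 for every gene in every panel, with 7 filled in the whole cochlea, 4 in the outer hair cell IP and none in the supporting cell IP. Gbp5 and Gbp6 were tested in the Sox2 strain alone.

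No difference between responses was shown. At 24 h, the IP response minus the input response of the same strain was called for none of 8 members in the Prestin strain, where 1.04% of genes were, and none had an unadjusted p below 0.05. In the Sox2 strain it was called for none of 10, where 0.0485% of genes were, and 1 had an unadjusted p below 0.05. That was Irgm2, whose response was 1.21 ± 0.44 higher in the IP (95% interval 0.23 to 2.19, adjusted p = 0.763). For Iigp1 the interval of the difference ran from -0.42 to 2.22 in the Prestin strain and from -1.17 to 2.59 in the Sox2 strain. The response of the Sox2 inputs minus that of the Prestin inputs at 24 h was called for none of 8 (0.00623% of genes), and none had an unadjusted p below 0.05. The response of the supporting cell IP minus that of the outer hair cell IP was called for none of 8 (0.168% of genes), and 2 had an unadjusted p below 0.05. These were Irgm2, with a difference of 1.56 ± 0.38 (adjusted p = 0.103), and Gbp4, with a difference of 1.52 ± 0.43 (adjusted p = 0.138). In this comparison of the IPs the median gene stood at 0.27, and 7 of 8 members were positive. The change of Irgm2 at 24 h was 2.39 in supporting cell IPs against 0.84 in outer hair cell IPs, and that of Gbp4 was 1.65 against 0.12.

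The members differed in how the pull-down held them. Averaged over conditions, 5 of 8 members were higher in the Prestin IP than in its input, but so were 68.5% of 17363 genes, and the median gene was higher by 0.82. In the Sox2 strain 3 of 10 members were higher, against 55.2% of 18560 genes and a median gene at 0.65. Gbp7 and Iigp1 stood farthest above the median gene in both, and Gbp3 stood above it by less. Gbp7 was 2.36 ± 0.20 higher in the Prestin IP (adjusted p = 5.83e-08), which is 1.54 above the median gene, and 1.38 ± 0.15 higher in the Sox2 IP (adjusted p = 2.88e-05), which is 0.73 above it. Its IP level over the input level of the same homogenate ran from 2.41 to 10.2 in the 9 Prestin homogenates (median 6.71) and from 1.45 to 6.46 in the 7 Sox2 homogenates (median 3.94). Every homogenate was thus above 1 for Gbp7, as it was for Gbp3 and Iigp1.

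Iigp1 was 1.86 ± 0.25 higher in the Prestin IP (adjusted p = 8.19e-06) and 1.39 ± 0.35 higher in the Sox2 IP (adjusted p = 0.00655). Its ratio ran from 1.30 to 7.07 (median 4.94) and from 1.003 to 20.7 (median 2.93). In the control libraries alone the differences of Iigp1 were 1.19 and 0.86 and neither passed (adjusted p = 0.0528 and 0.0647). Gbp3 was 1.01 ± 0.18 and 0.94 ± 0.15 higher (adjusted p = 0.000146 and 0.000335), and Gbp4 was 1.02 ± 0.15 higher in the Prestin IP (adjusted p = 2.71e-05). The median gene was higher by 0.82 in the Prestin IP and by 0.65 in the Sox2 IP. Gbp2, Irgm1, Irgm2 and Igtp stood near their input level, with median ratios from 0.703 to 1.27 in the 2 strains. Of these 4, Irgm2 passed as higher in the Prestin IP (0.31 ± 0.12, adjusted p = 0.0302), but it was 0.51 below the median gene.

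Most genes were higher in the IPs on the TPM scale, and the direction of some members depended on the scaling. With median-of-ratios scaling, 2 of 8 members were higher in the Prestin IP (Gbp7 by 1.44 and Iigp1 by 0.90) and 4 lower (Gbp2, Irgm1, Irgm2 and Igtp, at -1.08, -0.89, -0.65 and -1.07). In the Sox2 IP the same scaling left Gbp7 higher (0.61) and these 4 lower, at -0.95, -0.62, -0.90 and -0.83. Irgm1 passed as higher in the Sox2 IP when the homogenate entered as a block (0.27, adjusted p = 0.0131), where it was 0.37 below the median gene.

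**Figure D4:**
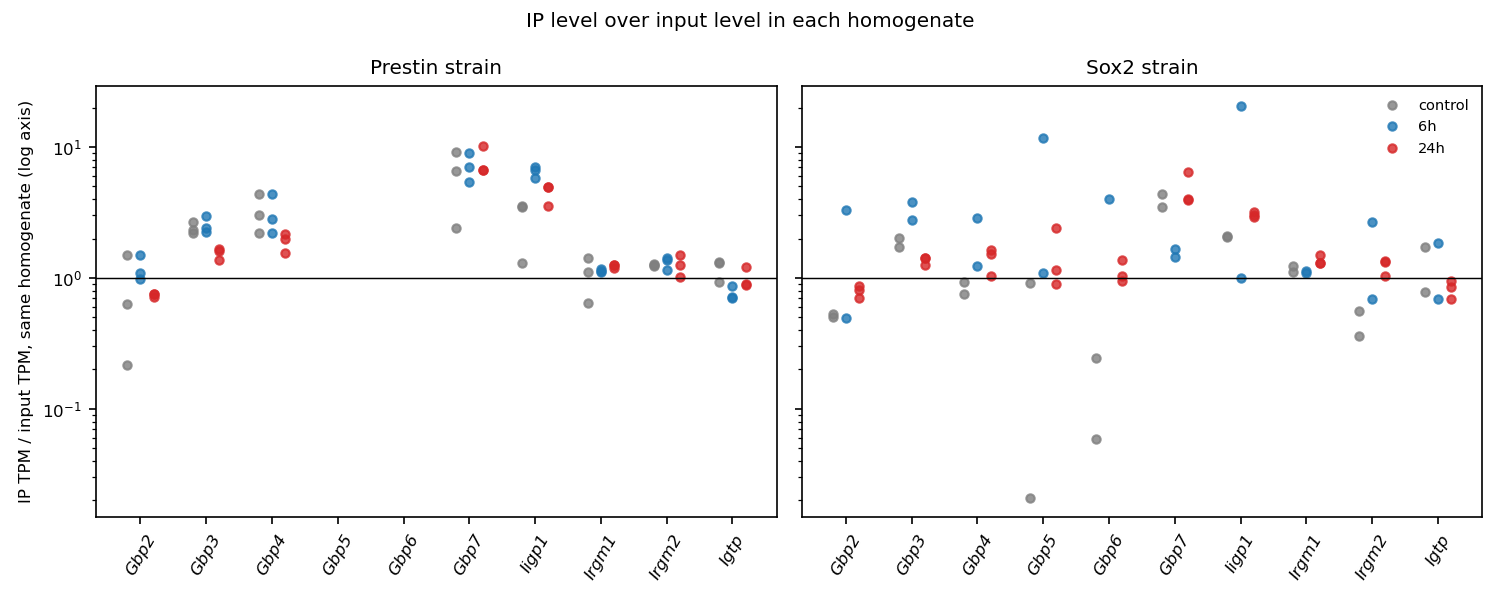
IP level over input level (TPM ratio, log axis) of each gene in each homogenate, for the Prestin strain and the Sox2 strain, with controls in grey, 6 h in blue and 24 h in red; the line marks a ratio of 1. Gbp3, Gbp7 and Iigp1 lie above 1 in all 9 Prestin homogenates and in all 7 Sox2 homogenates, while Gbp2 and Igtp lie around 1. The median of all genes was also higher in the IP than in the input, by 0.82 (Prestin) and 0.65 (Sox2) on the log2 scale. The ratio of Gbp6 in the Sox2 homogenate at 6 h where its IP is listed at 0 is not drawn.

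At 24 h the same homogenate was the highest of its group for most members. In the Prestin strain the input with replicate number 1 was the highest of its group for all 8 members and its IP for 6 of 8. In the Sox2 strain the input with number 2 was the highest for all 10 members and its IP for 8 of 10. The sum over the 8 shared members was 183 to 278 TPM in Prestin inputs at 24 h, against 68.3 to 91.6 TPM in controls. In Prestin IPs it was 286 to 511 TPM against 121 to 129 TPM, in Sox2 inputs 208 to 307 TPM against 65.6 to 75.5 TPM, and in Sox2 IPs 296 to 450 TPM against 76.2 to 109 TPM. At 6 h the sums were 49.4 to 81.4 TPM in Prestin inputs and 82.1 to 132.6 TPM in Prestin IPs. They were 72.7 to 84.6 TPM in Sox2 inputs and 108 to 124 TPM in Sox2 IPs.

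Of the interferon genes, 4 were looked at. Ifng, Ifnb1, Ifna4 and Ifnl3 were listed at 0 in every library but 1, an outer hair cell IP at 24 h with Ifng at 0.285 TPM. The 6 receptor genes were expressed, and none of them was called by limma in the whole cochlea at 24 h, where 3.78% of all genes were higher. Of the 6, 3 had an unadjusted p below 0.05 (median 0.18). Ifnar2, a chain of the type I receptor, came closest (0.42 ± 0.11, adjusted p = 0.0503). Ifngr1, a chain of the interferon-gamma receptor, stood at 11.1 ± 1.24 TPM in Prestin control inputs and 10.8 ± 1.25 TPM at 24 h (0.12 ± 0.11, adjusted p = 0.678). At 6 h Ifnlr1, a chain of the interferon-lambda receptor, was higher (0.57 ± 0.12, adjusted p = 0.00877).

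Of 10 signalling and transcription factors tested, 4 rose in the whole cochlea at 24 h, against 3.78% of all genes, with a median of 0.33 over the list. Irf7, which amplifies the type I response, rose by 2.03 ± 0.28 (adjusted p = 0.000526), and Irf1, which binds ISRE sequences, by 1.27 ± 0.19 (adjusted p = 0.000837). Stat2 rose by 0.90 ± 0.15 (adjusted p = 0.00259) and Irf9 by 0.81 ± 0.18 (adjusted p = 0.0167), and these proteins work together in a complex that binds ISRE. At 6 h, when no member was called, Irf1 was higher in the fit over both strains (0.89 ± 0.20, adjusted p = 0.0119). In the Prestin inputs alone Irf1 stood at 18.8 to 19.7 TPM at 6 h, against 6.05 to 8.77 TPM in controls. That is a larger change than the fit over both strains gave, and the Sox2 levels are not given here. Irf1 was the only one of the 10 called at 6 h, where 3.83% of all genes were called higher. Of the 10, 2 had an unadjusted p below 0.05. At 24 h Irf7 rose in the outer hair cell IP (2.13 ± 0.50, adjusted p = 0.0475) and Stat2 in the supporting cell IP (1.52 ± 0.16, adjusted p = 0.0467).

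Of 6 genes that brake the pathway, 3 were higher in the whole cochlea at 24 h, against 3.78% of all genes: Socs3 (2.12), Isg15 (2.05) and Usp18 (1.43). At 6 h 2 were higher, against 3.83% of all genes: Socs3 by 3.09 ± 0.19 (adjusted p = 5.35e-07) and Socs1, an inhibitor of JAK kinases, by 1.04 ± 0.27 (adjusted p = 0.026). The chemokine Cxcl10, which interferon-gamma induces, was higher at both times, by 1.49 ± 0.42 at 6 h (adjusted p = 0.0391) and by 4.49 ± 0.40 at 24 h (adjusted p = 1.46e-05). Cxcl11 rose by 2.58 ± 0.39 at 24 h. Cxcl10 also rose at 24 h in the outer hair cell IP (5.80 ± 0.30, adjusted p = 0.000476) and in the supporting cell IP (4.64 ± 0.31, adjusted p = 0.0138).

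**Figure D5:**
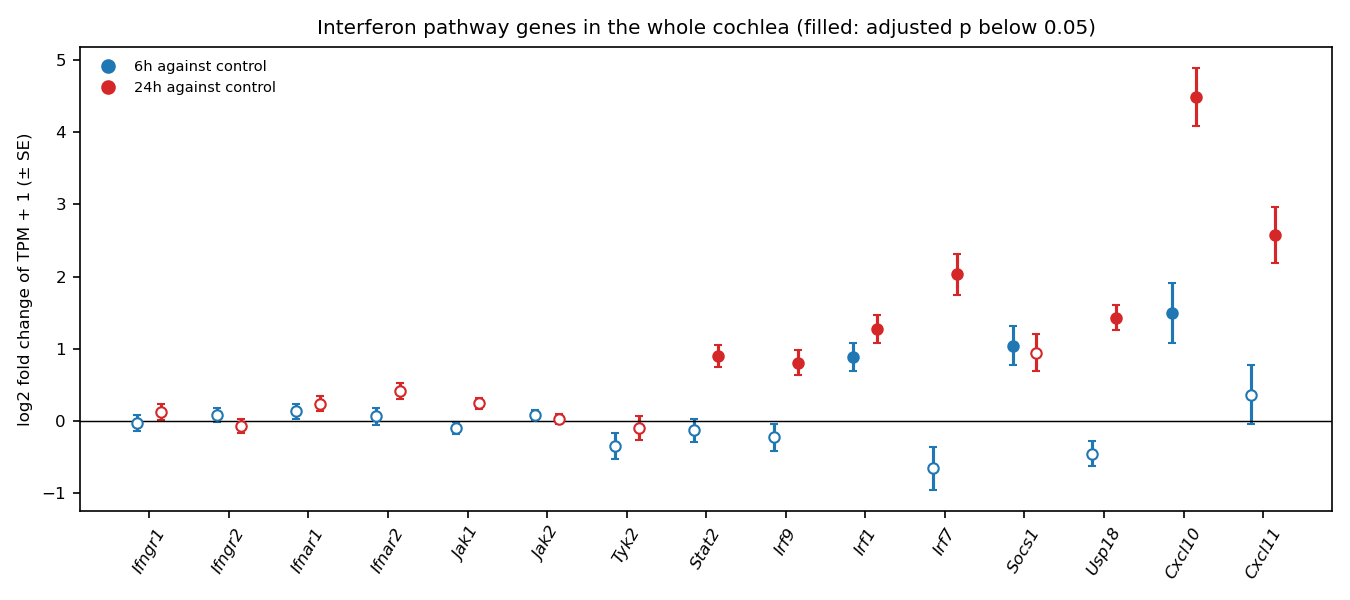
Log2 fold change of TPM + 1 against controls (± standard error) of interferon receptors, kinases, factors, brakes and chemokines in the whole cochlea at 6 h (blue) and 24 h (red); filled points passed an adjusted p of 0.05. Of the genes drawn, Irf1, Socs1 and Cxcl10 have filled points at 6 h, and Stat2, Irf9, Irf1, Irf7, Usp18, Cxcl10 and Cxcl11 at 24 h, while the receptors and kinases drawn have none (Socs3, Isg15 and Ifnlr1 are not drawn).

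Other interferon-inducible GTPases also rose in the inputs. At 24 h 6 of 7 tested were higher in the whole cochlea (median 1.13), against 3.78% of all genes. Among them were Tgtp1, a further Irg effector (2.21 ± 0.35), the dynamin-like Mx1 (2.00 ± 0.29), Tgtp2 (1.13) and Mx2 (0.94). At 6 h limma called none of the 7, where 8.54% of all genes were called, and 0 of the 7 had an unadjusted p below 0.05. At 6 h 3 of 9 were lower in outer hair cell IPs than in control IPs, where 4.77% of all genes were lower, with Mx1 at -2.22 ± 0.38, Mx2 at -1.73 ± 0.29 and Gm12250, an Irg gene, at -2.88 ± 0.63 (adjusted p = 0.0273, 0.0261 and 0.043). Mx1 stood there at 5.25 to 8.61 TPM in controls and at up to 1.19 TPM at 6 h. Related GTPases that are not known as interferon targets were not called in the inputs at 24 h (0 of 10 by limma, 0 with an unadjusted p below 0.05, median -0.04). Over all genes, 631 of 14204 were called there, so lists this short would hold few calls at that share. Of 3 inflammasome genes tested none was called in the whole cochlea at 24 h, and of 9 genes for Atg8 proteins and their conjugation, which steer Irg proteins to membranes, none was called either. In each of these last lists 1 gene had an unadjusted p below 0.05, and the same limit of short lists holds for them.

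Some macrophage markers were also higher at 24 h. Summed over 10 macrophage markers, Prestin inputs stood at 152 to 173 TPM in controls and 388 to 415 TPM at 24 h, and Sox2 inputs at 191 to 205 TPM and 324 to 485 TPM. In the whole cochlea at 24 h, 4 of 8 macrophage markers tested were higher, against 3.78% of all genes. The median of the 8 was 0.72, and 6 had an unadjusted p below 0.05. Those called were Cd68 (3.15 ± 0.26), Fcgr1 (1.13), C1qb (0.99) and C1qa (0.69), while Csf1r stood at -0.06 ± 0.10 (adjusted p = 0.844). In the IPs the sum went from 89.0 to 137 TPM in Prestin controls to 227 to 349 TPM at 24 h, and from 102 to 143 TPM in Sox2 controls to 220 to 233 TPM at 24 h. At 6 h, when no member was called, the sum was 137 to 179 TPM in Prestin inputs, 126 to 153 TPM in Sox2 inputs, 88.9 to 155 TPM in Prestin IPs and 205 to 253 TPM in Sox2 IPs. The part of these markers in the members' rise was not tested. The 10 markers of T and NK cells, the usual makers of interferon-gamma, summed to 0 to 5.31 TPM per library at any time, with Ncr1 listed at 0 in most groups. Neutrophil markers (8 genes) summed to 196 to 472 TPM in Prestin control inputs and 52.6 to 263 TPM at 24 h, and to 103 to 152 TPM in Sox2 control inputs and 76.8 to 187 TPM at 24 h. Groups overlapped in both strains, and limma called none of 6 tested at 24 h (631 of 14204 genes were called), with 3 at an unadjusted p below 0.05.

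Over the 12 group means, the genes whose levels followed the members' mean profile most closely were, of 14935 ranked, H2-T22 (Pearson r = 0.975), Oasl2 (0.972), Usp18 (0.969), Steap3 (0.951), H2-Q4 (0.949), Ifit2 (0.949), Pcolce (0.948), Irf7 (0.947), Zc3hav1 (0.946) and Tor3a (0.946). Within the family, r with the mean of the other members ran from 0.689 for Gbp7 to 0.958 for Iigp1 over the 12 groups. These values describe the groups, which share strains, homogenates and controls, and carry no test.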

How the data were processed

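The deposited files hold TPM values, made by the authors, and each library sums to 1000000, so counts and depth are unknown. TopHat and GRCm38 are named in the submitters' processing notes, and for the versions, the annotation, the counting tool and whether strand was used the sources used here give nothing. The members and gene lists were chosen with earlier results of these data known. Tests used limma 3.58.1 (R 4.3.3, eBayes with trend) on log2(TPM + 1), over genes with at least 1 TPM in as many libraries as the smallest group holds (5 for the inputs of both strains, 3 for Prestin, 2 for Sox2), and p-values were adjusted by Benjamini-Hochberg and called below 0.05. Inputs were fitted over both strains with the strain as a covariate, each IP response over the IPs of its strain, and IP against input as the mean over conditions. Intervals and p-values measure the spread between libraries, which the labels call biological triplicates. All 10 members were named, with up to 4 members of smallest p from other lists, a few more shown in a plot or chosen after their values were seen (Ifngr1, Csf1r), and the 10 genes of highest r, among shared genes with at least 5 TPM in some group mean. IP and input of a homogenate pair by design (r of their deviations 0.02 to 0.31). Scripts were tested on simulated data. Tables and figures were made in python 3.11.15 (pandas 2.3.3, matplotlib 3.10.9). Motifs were searched as letters in RefSeq promoters. A gene of the list of factors is not reported here.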

Additional observations from a re-analysis of the deposited data

How the results depend on the processing

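The tests were repeated with median-of-ratios scaling, without the filter, with a pseudocount of 0.1, with values rescaled without mitochondrial genes and Malat1, with the replicate number or homogenate as a block, in single strains, in a joint fit of IP and input, in control libraries alone, and leaving out each library or homogenate. Of 2687 fold changes of single members under them, 2483 kept direction and side of the threshold, 57 lost and 39 gained a call, and 108 changed sign. In 103 of these the member was called in neither fit, and 5 were called in at least 1 of the fits, all under median-of-ratios scaling: Gbp3 (-0.00997), Irgm1 (-0.89) and Irgm2 (-0.65) in the Prestin IP against input, and Irgm1 (-0.62) and Igtp (-0.83) in the Sox2 IP against input. That scaling called 5 members in the Sox2 IP against input. Control libraries alone called 3 in the Prestin IP and 1 in the Sox2 IP against input. Sox2 inputs alone called 0 members in the cochlea at 24 h. The joint fit called 1 member for outer hair cell IPs at 6 h, 7 at 24 h and 7 from 6 h to 24 h, and in the supporting cell IP 8 at 24 h and 6 from 6 h to 24 h, where a pseudocount of 0.1 called 1. Of all genes, the joint fit called 4256, 4295 and 424 in these outer hair cell IP comparisons, in that order. In the supporting cell IP it called 566 and 540. The cause of these shifts was not tested.

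With the replicate number as a replicate block, calls among members at 24 h in the outer hair cell IP went from 4 to 0. The block also ended the calls of Gbp7 in the whole cochlea at 24 h (0.93, adjusted p = 0.0826) and of Gbp4 from 6 h to 24 h (0.95, adjusted p = 0.0575). The labels do not say that a number marks shared mice across conditions. Libraries of the same number correlated at -0.10 to 0.04 in IPs and -0.04 to 0.10 in inputs, so the numbers were not taken as pairs. As a hint from the data, 8 of 9 Prestin inputs, but 1 of 9 Prestin IPs, correlated best with their own number. The homogenate block changed no other member call than that of Irgm1 given above.

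Leaving out libraries in turn, members called ran from 0 to 4 for outer hair cell IPs at 24 h, 7 to 8 in the cochlea at 24 h, 0 to 2 for the Sox2 IP minus input response at 6 h, and 0 to 1 for the Sox2 minus Prestin input response at 6 h. The last 2 counts came without the Sox2 homogenate or input at 6 h with number 2. Over all genes, calls moved from 1041 to 4295 (joint fit) and 106 (replicate block) for outer hair cell IPs at 24 h, from 33 to 566 and 0 in the supporting cell IP at 24 h, and from 631 to 329 (replicate block) in the cochlea at 24 h. TPM keep no depth, so no counting error could be given for low members such as Gbp5 and Gbp6.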
